A study of Mus with 6 samples.

Results

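The 33 genes described here encode the transcription factor p53, its regulators Mdm2 and Mdm4, a set of p53 target genes, the BCL2 family that decides whether mitochondria release their death signals, and the caspases and inhibitors that act after that step. They were taken by name from a table of 20893 genes, by a rule that uses no measured value, and all 33 were present. Earlier results of these data were known when the genes were chosen. RNA sequencing gave their expression in 6 mouse libraries. The cells were endothelial cells of the cardiac microvasculature, which line the small vessels of the heart. Magnetic beads were used to sort CD45-CD31+ cells, those carrying an endothelial surface protein and lacking the common leukocyte protein. In both genotypes the left coronary artery had been ligated, an operation that brings about a myocardial infarction. 3 libraries were from wild-type mice (WT) and 3 from Ccl28-KO mice (KO), and each group carries the replicate numbers 2, 3 and 4. Ccl28 encodes a chemokine, a secreted protein that attracts cells carrying its receptors. The genotype field of KO replicates 3 and 4 reads Ccl29-KO and Ccl30-KO, against their titles, which were followed. Strain, sex, age, time after ligation, how the deletion was made and whether a library is 1 animal or a pool were not given in the sources used here, so p-values reflect spread among these 6 libraries alone, and that spread may be technical.

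p53 is kept at a low level by the ubiquitin ligase MDM2 and its partner MDM4, and accumulates when DNA is damaged or ribosome assembly fails. It then induces genes of cell cycle arrest, such as Cdkn1a, and genes of cell death, such as Bax, Bbc3 and Fas, and it also induces Mdm2, which limits its own activity. In the mitochondrial pathway BAX and BAK1 form pores in the outer mitochondrial membrane, BCL2, BCL-XL (Bcl2l1), BCL-W (Bcl2l2) and MCL1 hold them in check, and the BH3-only proteins relieve that check. Released cytochrome c binds APAF1, the scaffold of the apoptosome, which activates caspase 9, while XIAP blocks caspases and DIABLO, released through the same pores, removes XIAP from them. Much of this pathway is controlled at the level of protein, which was not measured.

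The targeted gene had 16, 11 and 24 reads in WT replicates 2, 3 and 4 and 0 reads in each KO library. The libraries held 36004457 to 40500067 reads assigned to genes. Of the 10 endothelial markers none was near 0, with a summed FPKM of 4132 to 4260 in WT and 3720 to 4114 in KO, and 2 were higher and 5 lower in KO (FPKM are fragments scaled to transcript length and to the mapped fragments of a library). The 17 leukocyte markers summed to 138.5 to 291.3 FPKM in WT and 347.9 to 489.3 in KO, and 12 of 15 tested were higher in KO, whereas Ptprc, which encodes CD45, was at 1.225 ± 0.438 and 1.16 ± 0.213 FPKM (SD, n = 3 each). The 9 erythroid and platelet markers summed to 299.2 to 402.4 FPKM in WT and 489.9 to 639.6 in KO, with 7 of 9 higher. The 7 fibroblast markers summed to 26.8 to 31.1 and 12.4 to 15.1 FPKM, with 6 of 6 tested lower in KO, and the 9 mural cell markers to 457.2 to 598.5 and 343.3 to 536.7, with 7 of 9 lower. The summed FPKM of the 10 cardiomyocyte markers overlapped between the groups (177.1 to 255.5 and 243.3 to 283.7), with 2 of 8 tested higher and 1 lower. Their means ran from 0.0277 FPKM for Ttn to 59.7 for Mb in WT and from 0.0126 to 69.1 for the same genes in KO. Over all tested genes 18.3% were higher and 25.8% lower in KO, and 38.6% were higher among those with an implied length (described below) under 3000 nt. The median implied length was 1082 nt for the leukocyte markers and 639 nt for the erythroid and platelet markers. With the length trend described below removed, 9.93% of all tested genes were higher and 9.14% lower. Then 7 leukocyte, 2 erythroid and platelet and 1 cardiomyocyte markers were higher, and 3 endothelial, 5 fibroblast and 6 mural cell markers were lower. The part of these cells in the results below was not tested, and in such bulk samples fewer cells of a type and less RNA per cell cannot be told apart.

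One property of the libraries touches every value below. Genes with short implied transcripts tended to be higher in KO and genes with long ones lower. The implied length is the one by which the deposited FPKM were scaled, and need not be that of any 1 transcript. Across the 10806 tested genes, which are not independent, Spearman's rho between implied transcript length and log2 fold change was -0.72. The slope of a library on log2 length was 0.101 to 0.135 in the WT and -0.155 to -0.091 in the KO libraries, with replicate 4 the most extreme of each group. Genotype and this trend cannot be told apart as causes of a difference. Changes are given as deposited and after a smooth trend on length was subtracted from every library. Across the 32 tested genes of the set rho was -0.61 before and -0.04 after that step.

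Of the 33 genes, 32 passed the expression filter (3 or more libraries at an FPKM of 1 or higher) and were tested. 6 were higher and 12 lower in KO at an adjusted p under 0.05 (limma, Benjamini-Hochberg over all tested genes). That was 18 of 32, against 44.2% of all 10806 tested genes, with 18.3% of all genes higher and 25.8% lower. Shares of the set were 18.8% higher and 37.5% lower. The median log2 fold change of the 32 genes was -0.12, beside -0.03 over all tested genes. The FPKM of the 2 genotypes did not overlap for 20 of the 32, or 62.5%, against 54.7% of all tested genes (22.8% with KO above and 31.9% with KO below). The genes that rose were Fas, Bax, Bid, Bad, Bik and Diablo, and those that fell were Mdm2, Mdm4, Gdf15, Trp53inp1, Zmat3, Eda2r, Bcl2l11, Bcl2, Bcl2l2, Mcl1, Apaf1 and Xiap. By the authors' deposited table, of the 33 genes 7 were higher and 11 lower at q under 0.05, beside 29.3% of its 17686 genes (13.6% higher and 15.7% lower). Those 17686 include genes of low expression. Of the 10806 genes that passed the expression filter, the deposited table has 2281 higher and 2485 lower. That table adds Trp53 (log2 fold change 0.22, q = 0.0243) and Bbc3 (0.44, q = 0.0277) to the higher genes and leaves out Bid (q = 0.054) and Bcl2l2 (q = 0.0859).

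The split followed length. Of the 12 tested genes of the set with an implied transcript under 3000 nt, a limit chosen after the values were seen, 5 rose and 1 fell (Gdf15). Of the 20 with 3000 nt or more, 1 rose (Diablo) and 11 fell. Over all tested genes 38.6% of the shorter ones rose and 3.16% fell, and 3.52% of the longer ones rose and 42.4% fell. With the length trend removed 4 genes of the set were higher (Bbc3, Bad, Bik and Diablo) and 4 lower (Gdf15, Trp53inp1, Phlda3 and Eda2r), or 12.5% in each direction, against 19.1% of all genes called, 9.93% higher and 9.14% lower. The median was then -0.02, beside 0.01 over all genes. Of these 8 calls, those of Gdf15, Eda2r and Diablo were kept when any 1 of the 6 libraries was left out, and the other 5 were lost without at least 4 of them in turn. The number higher fell to 1 without WT replicate 4 and to 2 without KO replicate 3, KO replicate 4 or WT replicate 2, and the number lower fell to 2 without KO replicate 2, KO replicate 4 or WT replicate 4.

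**Figure D1:**
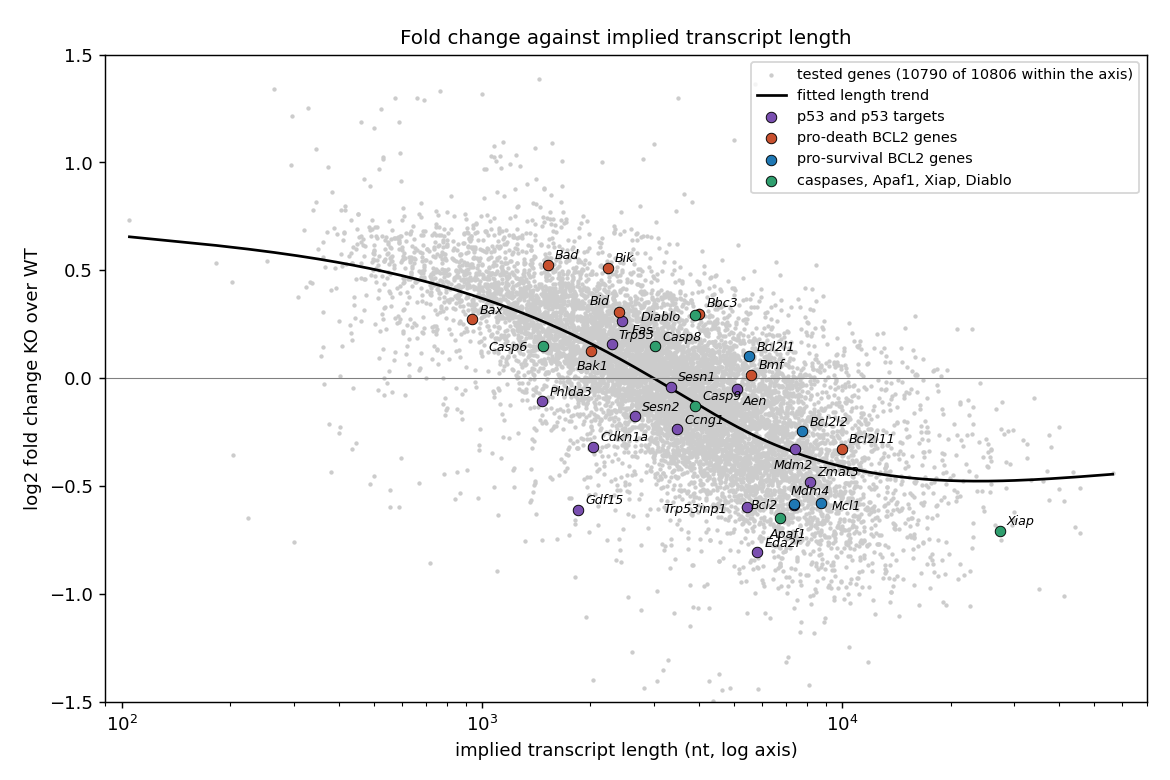
Log2 fold change of KO over WT in log2(FPKM + 1) units (vertical) against implied transcript length in nt (horizontal, log axis) for the tested genes in grey and the 32 tested genes of the set in colour, with the fitted trend as a black line. Bax, at 940 nt, lies near the line among the short genes that were higher in KO, while Gdf15 and Eda2r lie under it and Bad, Bik and Diablo above it.

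Trp53 itself, which encodes p53, was among the more abundant genes of the set. It was at 60.2, 54.6 and 54.5 FPKM in WT replicates 2, 3 and 4 and at 64.1, 64.3 and 60.6 FPKM in KO replicates 2, 3 and 4. The genotypes did not overlap, although WT replicate 2 lay just under the lowest KO library. The log2 fold change of 0.16 (SE 0.07) did not pass (adjusted p = 0.0928). Trp53 did pass when WT replicate 2 was left out (adjusted p = 0.0418) or under median-ratio scaling (adjusted p = 0.0248). Removal of the length trend brought it to 0.05 (adjusted p = 0.625).

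Both negative regulators of p53 fell. Mdm2, the ligase that marks p53 for degradation and is itself a p53 target (gene ID 17246, chr10:117688875-117710758, GRCm38), was at 7.35, 6.81 and 7.94 FPKM in WT and 5.57, 6.00 and 5.43 in KO. Mdm4, its partner without strong ligase activity (gene ID 17248, chr1:132986105-133030587), was at 6.39, 7.16 and 7.89 FPKM in WT and 4.77, 4.37 and 4.08 in KO. Every KO library lay below every WT library for both genes. The log2 fold change was -0.33 (SE 0.09, adjusted p = 0.0147) for Mdm2 and -0.59 (SE 0.10, adjusted p = 0.00158) for Mdm4. Mdm2 missed the threshold when WT replicate 4 was left out (adjusted p = 0.0705) or values were quantile normalized (adjusted p = 0.0605). At implied lengths of 7415 and 7354 nt the fitted trend alone differed by -0.34 between the genotypes for each, and with it removed the log2 fold changes were 0.02 for Mdm2 (adjusted p = 0.887) and -0.25 for Mdm4 (adjusted p = 0.0859; adjusted p = 0.0472 without WT replicate 2).

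**Figure D2:**
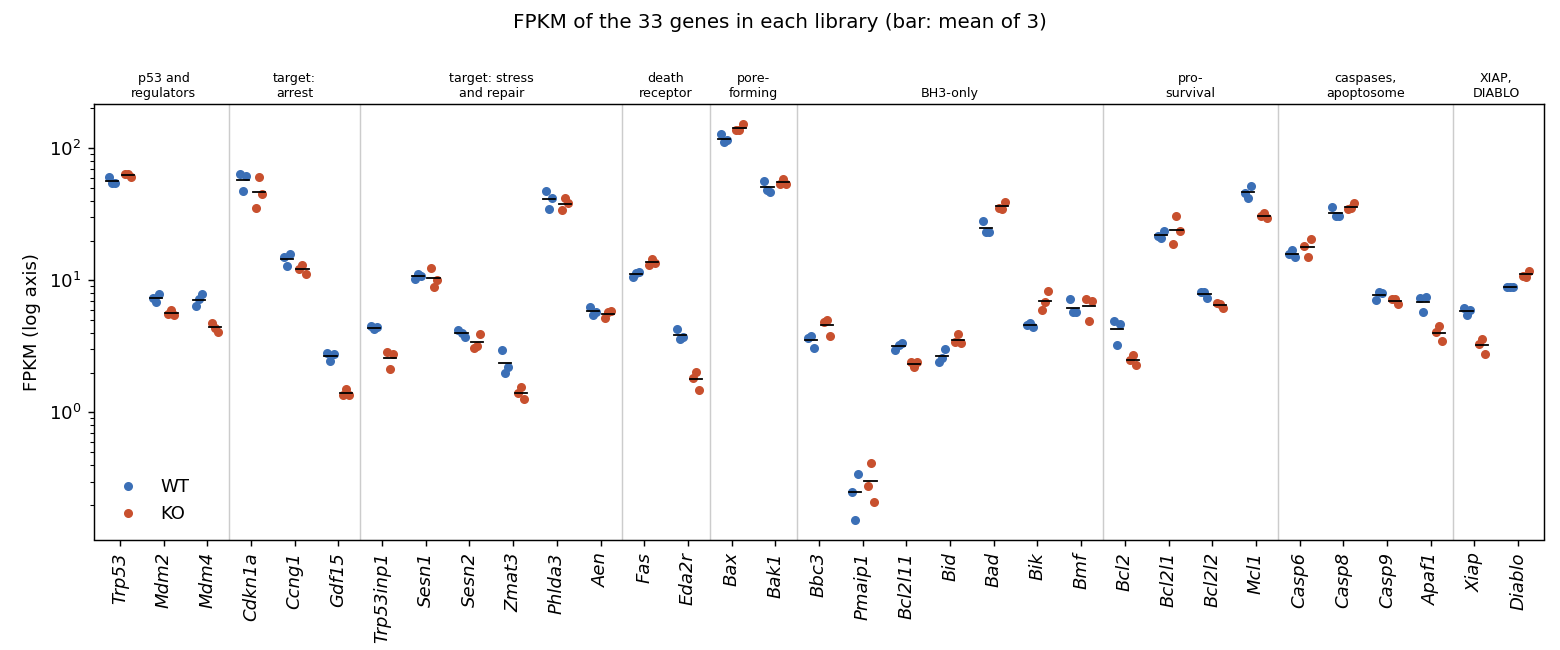
FPKM (vertical, log axis) of the 33 genes in each of the 3 WT (blue) and 3 KO (red) libraries, ordered by role, with the mean of each genotype as a bar. Bax had the highest mean and Pmaip1 the lowest, and the KO points of Mdm2, Mdm4, Gdf15, Eda2r, Mcl1, Apaf1 and Xiap lie under all WT points.

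Of the 12 p53 targets outside the BCL2 family, Mdm2 included, 5 fell and 1 rose, or 41.7% and 8.33%. Over all tested genes 25.8% fell and 18.3% rose, and 42.4% fell among those of 3000 nt or more. With the length trend removed 4 of the 12 were lower (33.3%) and 0 higher, beside 9.14% and 9.93% of all tested genes. The arrest gene Cdkn1a, which encodes the cyclin-dependent kinase inhibitor p21 and is the best known p53 target, was at 64.2, 47.3 and 61.5 FPKM in WT and at 35.3, 60.4 and 44.7 FPKM in KO. KO replicate 3 lay within the WT range and the other KO libraries below it. Its log2 fold change was -0.32 (SE 0.18, adjusted p = 0.169), and -0.51 without KO replicate 3 (adjusted p = 0.0176). Removal of the length trend gave -0.47 (adjusted p = 0.0976), and -0.68 without KO replicate 3 (adjusted p = 0.0128). Ccng1, the gene of cyclin G1, had 12.9 to 15.7 FPKM in WT and 11.2 to 13.2 in KO, with a log2 fold change of -0.24 (adjusted p = 0.0675) that passed without WT replicate 3 (adjusted p = 0.0267), and -0.17 after trend removal (adjusted p = 0.18).

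Gdf15, which encodes a secreted stress cytokine (gene ID 23886, chr8:70629393-70632470), fell. It was at 2.81, 2.44 and 2.75 FPKM in WT and 1.36, 1.51 and 1.35 in KO, or 177 to 211 reads against 90 to 104. The lowest WT library was well above the highest KO library. Its mean was 1.90-fold lower in KO (log2 fold change -0.61, SE 0.10, adjusted p = 0.00119). Its implied length of 1852 nt put it among genes with a fitted trend of 0.19 in the other direction, and with that removed it was at -0.80 (SE 0.09, adjusted p = 0.00228), the lowest value of the 32 genes; leaving out any 1 library gave adjusted p-values up to 0.0145.

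Among targets that act in stress and repair, Trp53inp1 and Zmat3 fell and 4 others did not pass. Trp53inp1, which encodes a p53-induced nuclear protein that promotes p53 activity and autophagy (gene ID 60599, chr4:11156441-11174379), was at 4.48, 4.27 and 4.41 FPKM in WT and 2.85, 2.13 and 2.75 in KO. KO replicate 3 was the lowest, and the groups were apart. Trp53inp1 had a log2 fold change of -0.60 (SE 0.10, adjusted p = 0.00186), and removal of the length trend left -0.35 (adjusted p = 0.0442), a call lost without any 1 of the 6 libraries (adjusted p = 0.0615 to 0.113). Zmat3, a gene of an RNA-binding zinc finger protein (gene ID 22401, chr3:32334792-32365665), was at 2.96, 1.97 and 2.22 FPKM in WT and 1.40, 1.57 and 1.27 in KO. WT replicate 2 stood above the rest, and no KO library reached the WT range. The log2 fold change of Zmat3 was -0.48 (adjusted p = 0.0121), and -0.11 with the trend removed (adjusted p = 0.528).

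The sestrin genes Sesn1 and Sesn2, whose products restrain the growth kinase complex mTORC1, overlapped between the genotypes. Sesn1 ranged from 10.3 to 11.1 FPKM in the WT libraries and from 8.92 to 12.5 FPKM in the KO libraries (log2 fold change -0.04, SE 0.11), and Sesn2 at 3.70 to 4.21 and 3.06 to 3.95 FPKM (-0.18, SE 0.10). Aen, a nuclease gene, was at 5.42 to 6.33 and 5.14 to 5.82 FPKM (-0.05, SE 0.09). After trend removal the log2 fold changes were 0.01 for Sesn1, -0.23 for Sesn2 and 0.17 for Aen, and none of these 3 passed in limma (adjusted p = 0.975, 0.141 and 0.19). Phlda3, which encodes a p53-induced inhibitor of the kinase AKT, ranged from 34.4 to 47.3 FPKM in the WT libraries and from 33.8 to 42.3 FPKM in the KO libraries (-0.11, SE 0.12, adjusted p = 0.498). After the length trend was removed Phlda3 was lower in KO (log2 fold change -0.37, adjusted p = 0.0463), a call lost without KO replicate 2, KO replicate 4, WT replicate 2 or WT replicate 4 (adjusted p = 0.12 to 0.138).

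The 2 receptor genes of the p53 set moved in opposite directions. Eda2r, which encodes a receptor of the TNF family that binds ectodysplasin A2 (gene ID 245527, chrX:97333837-97377234), was at 4.31, 3.59 and 3.70 FPKM in WT and at 1.84, 2.04 and 1.49 FPKM in KO. The lowest WT value was 3.59 and the highest KO value 2.04 FPKM. Its mean was 2.16-fold lower in KO, the largest fold of the tested genes of the set (log2 fold change -0.81, SE 0.11, adjusted p = 0.000714). Removal of the length trend left -0.53 (SE 0.10, adjusted p = 0.0094), and adjusted p-values up to 0.0356 with any 1 library left out. Fas, the receptor of FAS ligand (gene ID 14102, chr19:34290647-34327775), was at 10.7, 11.4 and 11.6 FPKM in WT and 13.0, 14.4 and 13.6 in KO, with no overlap. It rose by a log2 fold change of 0.26 (SE 0.08, adjusted p = 0.0204), a call that ended when KO replicate 3 (adjusted p = 0.0703) or WT replicate 2 (adjusted p = 0.0566) was left out, or the trend was removed (0.18, adjusted p = 0.141).

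**Figure D3:**
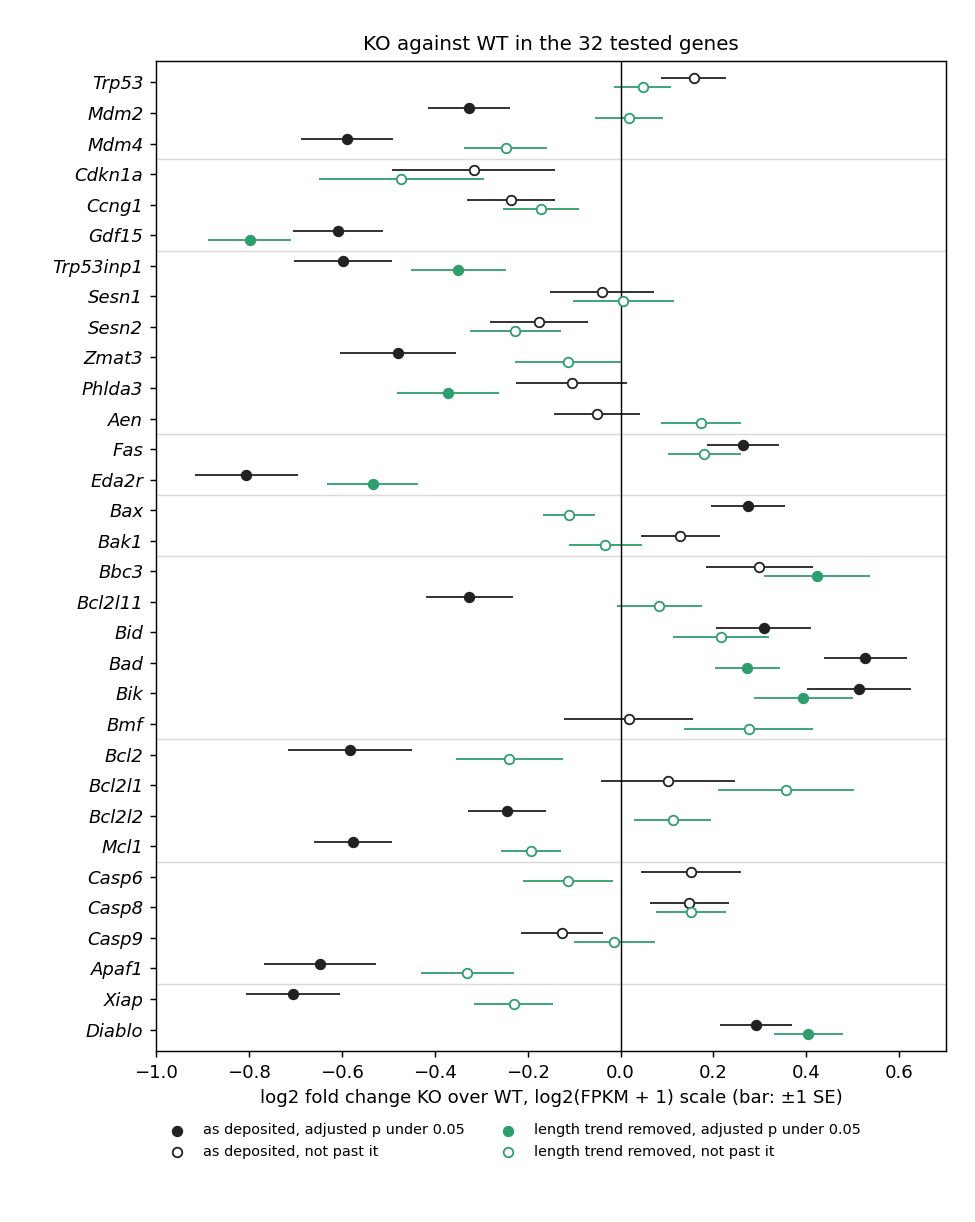
Log2 fold change of KO over WT (horizontal, log2(FPKM + 1) scale, bars ±1 SE) for the 32 tested genes, as deposited (black) and after removal of the length trend (green), with filled points where the adjusted p was under 0.05. 18 black and 8 green points are filled, and the green points of Mdm2, Bax, Bcl2l11, Bcl2l2, Bak1, Casp6, Aen and Sesn1 lie on the other side of 0 from the black ones.

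In the BCL2 family, 4 of 8 tested pro-death genes rose and 1 fell, whereas of 4 pro-survival genes 3 fell and Bcl2l1 did not pass. Over all tested genes 18.3% were higher and 25.8% lower, with 38.6% higher among those under 3000 nt and 42.4% lower among those of 3000 nt or more. The pro-death genes had a median log2 fold change of 0.29 and the pro-survival genes one of -0.41. The 2 classes also differed in length, with a median implied transcript of 2318 nt for the pro-death genes and 7551 nt for the pro-survival genes. With the length trend removed 3 of the 8 pro-death genes were higher (37.5%), and the 4 pro-survival genes all missed the threshold in limma. Over all tested genes 9.93% were then higher and 9.14% lower. The 3 calls, of Bbc3, Bad and Bik, were each lost when certain single libraries were left out, as given below. The medians were then 0.24 for the pro-death genes and -0.04 for the pro-survival genes.

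Bax, the gene of the main pore-forming protein and a p53 target (gene ID 12028, chr7:45461695-45466903), had the highest level of the set. It was at 127.9, 110.8 and 114.5 FPKM in WT and 136.5, 137.9 and 153.1 FPKM in KO. KO replicate 4 was the highest, and all KO libraries lay above the WT ones. Bax rose 1.21-fold (log2 fold change 0.27, SE 0.08, adjusted p = 0.02). Bax missed the threshold when KO replicate 4 (adjusted p = 0.0729), WT replicate 3 (adjusted p = 0.064) or WT replicate 4 (adjusted p = 0.0756) was left out, and under quantile normalization (0.08, adjusted p = 0.339). With an implied transcript of 940 nt, the shortest of the set, its fitted trend was 0.39, and the value with that removed was -0.11 (adjusted p = 0.202). Bak1, the other pore-forming gene, was at 56.7, 48.6 and 46.8 FPKM in WT and 53.9, 58.6 and 53.6 in KO, so WT replicate 2 lay within the KO range. Its log2 fold change was 0.13 (SE 0.09, adjusted p = 0.244), which passed without WT replicate 2 (adjusted p = 0.0487), and -0.03 after trend removal (adjusted p = 0.806).

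The BH3-only genes are the sensors of the family, each tied to its own stress. Bad, whose product binds BCL-XL unless growth factor signalling phosphorylates it (gene ID 12015, chr19:6941861-6951905), was the most abundant of them. It was at 28.02, 23.4 and 23.4 FPKM in WT and 35.1, 34.6 and 39.2 in KO. The highest WT library lay below the lowest KO library. Bad rose 1.46-fold (log2 fold change 0.53, SE 0.09, adjusted p = 0.00166), and by 0.27 with the trend removed (adjusted p = 0.029), a call lost without any 1 library other than WT replicate 2 (adjusted p up to 0.115). Bik, a BH3-only gene whose protein sits at the endoplasmic reticulum (gene ID 12124, chr15:83526790-83544635), was at 4.60, 4.73 and 4.45 FPKM in WT and 5.98, 6.81 and 8.30 in KO. The WT libraries were close together and the KO libraries spread upward from them. Bik rose 1.53-fold (0.51, SE 0.11, adjusted p = 0.00524), and the value was 0.39 with the trend removed (adjusted p = 0.0345; lost without KO replicate 3, KO replicate 4, WT replicate 2 or WT replicate 4, adjusted p = 0.0674 to 0.113).

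Bid, which carries the signal of death receptors to mitochondria once caspase 8 has cut its product (gene ID 12122, chr6:120893119-120917062), was at 2.42, 2.59 and 3.01 FPKM in WT and 3.40, 3.90 and 3.33 in KO. The groups did not overlap, with 235 to 285 reads in WT and 288 to 348 in KO. It rose by 0.31 (SE 0.10, adjusted p = 0.0347). The call was lost when any 1 library other than WT replicate 4 was left out (adjusted p = 0.0509 to 0.115) and with the trend removed (0.22, adjusted p = 0.177). Bbc3, which encodes PUMA, a potent p53-induced killer (gene ID 170770, chr7:16308398-16318334), was at 3.68, 3.79 and 3.06 FPKM in WT and 4.88, 5.00 and 3.81 in KO. Replicate 4 was the lowest library of each genotype, and KO replicate 4 lay just above the highest WT value. Its log2 fold change of 0.30 (SE 0.12) did not pass (adjusted p = 0.0593), but did when KO replicate 4 was left out (0.40, adjusted p = 0.0243) or under median-ratio scaling (adjusted p = 0.0397). After the length trend was removed it was higher in KO (0.42, adjusted p = 0.0337), a call lost without KO replicate 2, KO replicate 3, WT replicate 2 or WT replicate 4 (adjusted p = 0.0655 to 0.121).

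Bcl2l11, which encodes BIM, a BH3-only protein that loss of growth factor induces, was the 1 pro-death gene that fell (gene ID 12125, chr2:128126038-128162547). It was at 2.97, 3.24 and 3.38 FPKM in WT and 2.43, 2.20 and 2.41 in KO, with no overlap. Bcl2l11 had a log2 fold change of -0.33 (SE 0.09, adjusted p = 0.0186), which ended when KO replicate 3 (adjusted p = 0.0601) or WT replicate 4 (adjusted p = 0.0748) was left out. At an implied 9974 nt the trend was -0.41, and the value with it removed was 0.08 (adjusted p = 0.564). Bmf, another BH3-only gene, overlapped at 5.71 to 7.17 FPKM in WT and 4.90 to 7.24 in KO (0.02, SE 0.14), and passed as higher with the trend removed only when KO replicate 3 was left out (adjusted p = 0.0294). Pmaip1, which encodes the p53 target NOXA, lay under the expression filter with 16 to 36 reads in WT and 20 to 41 in KO. Its FPKM were 0.25 ± 0.095 in WT and 0.301 ± 0.105 in KO (SD, n = 3 each; exact two-sided permutation p = 0.6, where 3 against 3 samples cannot go below 0.1).

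Of the pro-survival genes, Mcl1, which encodes a short-lived protein that sequesters BAK1 and BIM (gene ID 17210, chr3:95656944-95663179), was the most abundant. Its level was 45.9, 42.3 and 51.4 FPKM in WT and 30.8, 32.1 and 29.4 FPKM in KO. All KO libraries lay well below the lowest WT library. Mcl1 fell 1.51-fold (log2 fold change -0.58, SE 0.08, adjusted p = 0.000856). With an implied 8725 nt its trend was -0.38, and -0.19 was left after removal (adjusted p = 0.0676). Bcl2, the founding member (gene ID 12043, chr1:106538176-106714290), was at 4.88, 3.23 and 4.70 FPKM in WT and 2.50, 2.70 and 2.27 in KO. WT replicate 3 was the nearest to the KO libraries without reaching them. The log2 fold change of Bcl2 was -0.58 (SE 0.13, adjusted p = 0.00687), and -0.24 with the trend removed (adjusted p = 0.181), where it passed without WT replicate 3 (-0.36, adjusted p = 0.0429).

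Bcl2l2, the BCL-W gene (gene ID 12050, chr14:54883366-54890858), was at 8.12, 8.21 and 7.32 FPKM in WT and 6.71, 6.58 and 6.20 in KO, with no overlap. It fell by 0.24 on the log2 scale (SE 0.08, adjusted p = 0.0391), a call lost without any 1 of the 6 libraries (adjusted p = 0.052 to 0.105) and with median-ratio scaling (adjusted p = 0.0771), and was at 0.11 with the trend removed. Bcl2l1, the BCL-XL gene, was at 21.6, 21.1 and 23.7 FPKM in WT and 18.7, 30.5 and 23.5 in KO. KO replicate 2 was the lowest and KO replicate 3 the highest of all 6 libraries. Its log2 fold change was 0.10 (SE 0.14, adjusted p = 0.593), and 0.36 after trend removal (adjusted p = 0.122; 0.53 and adjusted p = 0.0217 without KO replicate 2).

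Ratios within a library do not depend on its depth and are given as a description, without a test. Bax exceeded Bcl2 by 26.2, 34.3 and 24.4 times in WT and by 54.6, 51.1 and 67.5 times in KO. The KO libraries all lay above the WT libraries. On the log2(FPKM + 1) scale the difference between the 2 genes' changes was 0.86, and 0.13 with the length trend removed. Bax over Bcl2l1 overlapped between the genotypes, with a WT range of 4.83 to 5.93 and a KO range of 4.52 to 7.30. Summed over its 4 pro-survival members the family had 74.7 to 87.2 FPKM in WT and 58.7 to 71.9 in KO, and over the 7 BH3-only members 43.4 to 49.1 and 57.8 to 64.2 FPKM. Bax and Bak1 together were at 159.3 to 184.6 FPKM in WT and 190.4 to 206.6 in KO. These sums are as deposited and weigh most on abundant genes, such as Mcl1 and Bad. With the length trend removed the log2 fold changes were -0.11 for Bax and -0.03 for Bak1. The median was then -0.04 for the pro-survival genes and 0.27 for the tested BH3-only genes.

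**Figure D4:**
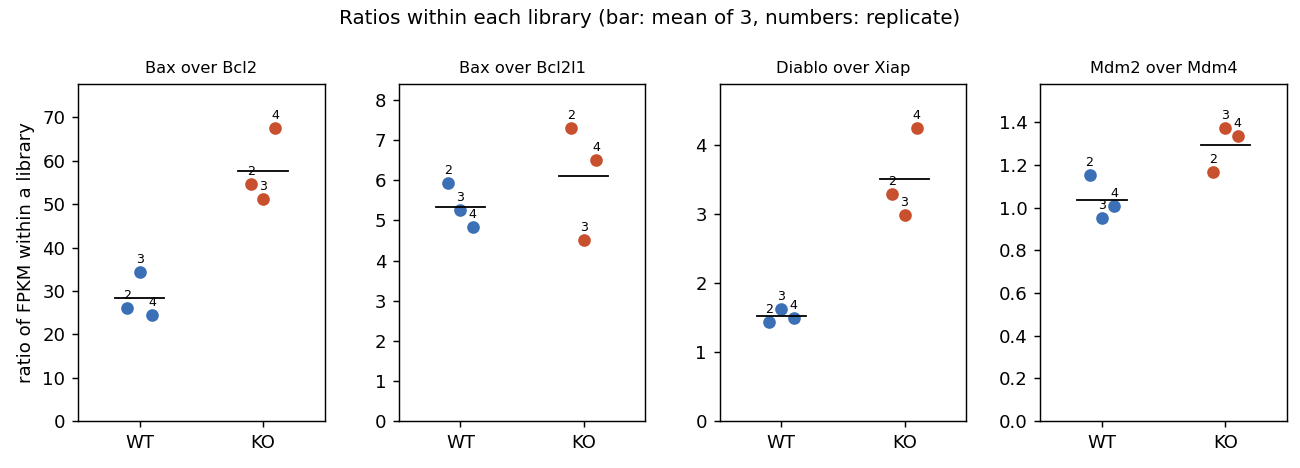
Ratio of FPKM within each library (vertical, linear axis from 0) for 4 gene pairs, with WT in blue, KO in red, replicate numbers beside the points and the mean as a bar. Bax over Bcl2 and Diablo over Xiap do not overlap between the genotypes, at 24.4 to 34.3 against 51.1 to 67.5 and at 1.44 to 1.62 against 2.98 to 4.24, while Bax over Bcl2l1 overlaps.

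None of the 3 caspase genes of the set passed in limma. Casp8, the initiator caspase of death receptors, was the most abundant at 36.1, 30.9 and 30.6 FPKM in WT and 34.5, 35.1 and 38.6 in KO (log2 fold change 0.15, SE 0.08, adjusted p = 0.183; adjusted p = 0.0479 without WT replicate 2). Casp9, the initiator of the mitochondrial pathway, was at 7.07 to 8.15 and 6.60 to 7.26 FPKM (-0.13, SE 0.09, adjusted p = 0.267). Casp6, an effector caspase, was at 15.04 to 16.9 and 15.1 to 20.6 FPKM (0.15, SE 0.11, adjusted p = 0.278). The genotypes overlapped for each of the 3. After trend removal the values were 0.15 for Casp8, -0.01 for Casp9 and -0.11 for Casp6 (adjusted p = 0.191, 0.932 and 0.453).

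Apaf1, whose product builds the apoptosome (gene ID 11783, chr10:90989311-91082743), fell. It was at 7.37, 5.72 and 7.48 FPKM in WT and 4.07, 4.51 and 3.44 in KO, and WT replicate 3 was the closest to the KO libraries. Its mean was 1.71-fold lower in KO (log2 fold change -0.65, SE 0.12, adjusted p = 0.00256). After removal of the trend it was at -0.33 (SE 0.10), just short of the threshold (adjusted p = 0.0502), and passed without KO replicate 3 (adjusted p = 0.0465) or WT replicate 3 (adjusted p = 0.0333).

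Xiap and Diablo, the inhibitor and its antagonist, moved in opposite directions. Xiap (gene ID 11798, chrX:42059613-42109664) was at 6.17, 5.47 and 5.92 FPKM in WT and 3.27, 3.58 and 2.79 in KO. It fell 1.82-fold (log2 fold change -0.71, SE 0.10, adjusted p = 0.000807). Its implied transcript of 27376 nt was the longest of the set, the trend there was -0.48, and -0.23 remained after removal (adjusted p = 0.0924). Diablo (gene ID 66593, chr5:123511330-123524164) was at 8.86, 8.84 and 8.87 FPKM in WT and 10.8, 10.7 and 11.8 in KO. The WT libraries were nearly equal and all KO libraries lay above them. Diablo rose 1.25-fold (0.29, SE 0.08, adjusted p = 0.0136), although genes of its length, an implied 3892 nt, had a trend of -0.11. With the trend removed it was at 0.40 (SE 0.07, adjusted p = 0.00957), the second highest of the 32 genes after Bbc3, and adjusted p-values with any 1 library left out went up to 0.0453. Diablo over Xiap was 1.44, 1.62 and 1.497 in WT and 3.29, 2.98 and 4.24 in KO, a log2 change of 1.00 on the log2(FPKM + 1) scale, and of 0.63 after trend removal.

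In the annotation Bak1, Bcl2l11, Bad, Bcl2l1, Casp9, Apaf1 and Diablo each overlap another protein-coding gene, in that order Ggnbp1, Acoxl, Gpr137, Cox4i2, Cela2a, Ikbip and B3gnt4. These are overlaps of whole gene spans. Bak1 lies wholly within Ggnbp1, while the others overlap at an end only, Apaf1 by a few nt. The library kit keeps the strand, but whether the counting used it is not given in the sources used here, so reads in the shared stretches could belong to either gene.

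Other genes of the pathway were taken from lists of 114 symbols, of which 107 were in the table and 91 were tested. 20 rose and 22 fell, or 46.2% against the 44.2% of all genes. With the length trend removed 12 were higher and 14 lower, or 13.2% and 15.4%, beside 9.93% and 9.14% of all tested genes. Of 39 other p53 targets 6 rose and 8 fell, or 15.4% and 20.5%, beside 18.3% and 25.8% of all tested genes. Kitl, the stem cell factor gene, went from 80.3 ± 7.90 to 43.4 ± 5.39 FPKM (SD, n = 3 each, adjusted p = 0.000523), Btg2, an antiproliferative gene, from 55.0 ± 3.33 to 35.7 ± 1.61 (adjusted p = 0.000523) and Rrm2b, which encodes a subunit of ribonucleotide reductase for DNA repair, from 4.37 ± 0.295 to 2.46 ± 0.249 (adjusted p = 0.00103). These 3 were also lower with the trend removed, at -0.61, -0.60 and -0.40, and Rrm2b lost that call without WT replicate 4 (adjusted p = 0.0646). Ninj1, whose product ruptures the membrane of dying cells, rose from 34.5 ± 1.45 to 43.0 ± 1.16 FPKM (adjusted p = 0.00533) and was at -0.03 with the trend removed. In all, 2 of the 39 were higher and 7 lower after that step, or 5.13% and 17.9%.

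Of 18 tested kinases, ligases and cofactors of p53, 5 rose and 9 fell, and 7 were higher and 3 lower with the trend removed, where the shares of all tested genes were 18.3% and 25.8%, and 9.93% and 9.14%. The acetyltransferase genes Ep300 and Crebbp, whose products are p53 coactivators, fell from 9.06 ± 0.567 to 4.29 ± 0.138 FPKM (adjusted p = 0.000266) and from 5.35 ± 0.262 to 3.07 ± 0.103 (adjusted p = 0.000695). Trp53bp2, which encodes ASPP2, a protein that steers p53 to death genes, fell from 6.03 ± 0.147 to 3.70 ± 0.063 FPKM (adjusted p = 0.000787). Rpl23, a ribosomal protein gene whose product can bind MDM2, rose from 361.9 ± 17.3 to 545.3 ± 60.6 FPKM (adjusted p = 0.00112). With the trend removed the log2 fold changes were -0.54 for Ep300, -0.42 for Trp53bp2, -0.22 for Crebbp (adjusted p = 0.095) and 0.23 for Rpl23 (adjusted p = 0.0416, lost without any 1 library other than KO replicate 3, adjusted p up to 0.144).

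Of 6 other BCL2 family genes tested, 3 rose and 1 fell, or 50% and 16.7%, and none passed with the trend removed in limma. Their median implied length was 1658 nt. Over all tested genes 18.3% rose and 25.8% fell, and among those under 3000 nt 38.6% rose and 3.16% fell. Bok, a pore-forming relative of Bax, rose from 29.4 ± 1.99 to 38.5 ± 1.23 FPKM (adjusted p = 0.00322), and its log2 fold change went from 0.38 to 0.13 after trend removal. Bcl2a1b, a pro-survival gene of leukocytes whose near-identical copies Bcl2a1a and Bcl2a1d make its reads uncertain, rose from 3.09 ± 1.67 to 8.81 ± 2.25 FPKM (adjusted p = 0.00473), beside the leukocyte markers given above, and missed the threshold after trend removal (0.90, adjusted p = 0.0672; adjusted p = 0.0415 without WT replicate 4). Bcl2l12 was higher (adjusted p = 0.042) and Bcl2l13 lower (adjusted p = 0.0371). Bcl2l12 lost its call without KO replicate 2, KO replicate 4, WT replicate 2 or WT replicate 3, and Bcl2l13 without KO replicate 3, KO replicate 4, WT replicate 2 or WT replicate 4 (adjusted p up to 0.121 and 0.117), and after trend removal they were at -0.05 and 0.03.

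Of 15 other caspases and execution genes 5 rose and 1 fell, or 33.3% and 6.67%, at a median implied length of 2672 nt. Over all tested genes 18.3% rose and 25.8% fell, and among those under 3000 nt 38.6% rose and 3.16% fell. With the length trend removed 6.67% of the 15 were higher and 13.3% lower, beside 9.93% and 9.14% of all tested genes. Vdac2, a mitochondrial channel gene, rose from 94.2 ± 6.21 to 117.3 ± 3.02 FPKM (adjusted p = 0.0062), Htra2, a mitochondrial protease gene, from 16.5 ± 1.25 to 20.1 ± 0.143 (adjusted p = 0.0165; adjusted p = 0.0829 without WT replicate 4), and Septin4 from 58.2 ± 2.46 to 68.5 ± 3.72 (adjusted p = 0.0242; lost without KO replicate 2, KO replicate 4 or WT replicate 4, adjusted p up to 0.102). Casp2 fell from 14.1 ± 0.357 to 10.99 ± 0.943 FPKM (adjusted p = 0.00957). After trend removal Vdac2 was at 0.09 and Htra2 at 0.06, Septin4 was higher and Casp1 and Casp2 lower (0.38, -0.36 and -0.27), the last 3 each losing its call without WT replicate 4 (adjusted p = 0.0545, 0.0832 and 0.12). Casp1 also lost its call without KO replicate 2, KO replicate 3, WT replicate 2 or WT replicate 3, and Casp2 without KO replicate 2, KO replicate 4, WT replicate 2 or WT replicate 3.

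Of 6 other inhibitors of apoptosis 2 fell and 1 rose, or 33.3% and 16.7%, as with the trend removed. Over all tested genes 25.8% fell and 18.3% rose, and 9.14% and 9.93% did with the trend removed. Cflar, which encodes the caspase 8 inhibitor c-FLIP, fell from 14.3 ± 0.984 to 7.56 ± 0.657 FPKM (log2 fold change -0.84, adjusted p = 0.000456), and was at -0.45 with the trend removed (adjusted p = 0.00541). Birc6, a very large inhibitor gene, fell from 5.99 ± 0.592 to 3.13 ± 0.39 FPKM (adjusted p = 0.00077), with -0.29 after removal (adjusted p = 0.0438, lost without any 1 library other than KO replicate 3). Birc5, the survivin gene of dividing cells, rose from 2.95 ± 0.76 to 4.54 ± 0.272 FPKM (adjusted p = 0.0127), a call that ended when WT replicate 4 was left out (adjusted p = 0.0524). Birc5 was also higher after removal of the trend (0.56, adjusted p = 0.0177), unless KO replicate 4 (adjusted p = 0.0552) or WT replicate 4 (adjusted p = 0.0679) was left out. Of 7 tested genes of death receptor signalling 1 fell and 0 rose, or 14.3% and 0%, beside 25.8% and 18.3% of all tested genes. That was Tnfsf10, the TRAIL gene, which went from 26.3 ± 1.37 to 18.6 ± 4.10 FPKM (adjusted p = 0.0133). With the trend removed Tnfsf10 was at -0.28 (adjusted p = 0.165), and passed without KO replicate 2 (adjusted p = 0.0445). Traf2 was then the 1 called gene of the list, as higher (0.25, adjusted p = 0.0421), a call lost without any 1 of the 6 libraries (adjusted p up to 0.13). Fasl, the ligand gene of Fas, was listed at 0 FPKM in 5 of 6 libraries and at 0.0139 in KO replicate 3.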

How the data were processed

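For 20893 genes the authors deposited FPKM of each library. Their second deposited table covers 17686 genes and, per the file headers, gives group means as normalized signal, a fold change (ratio), its log2, and a DESeq2 p-value with its q-value. Per the submitters' processing notes, which state no role or order, GATK 4.0.11.0, DESeq2 1.22.1, featureCounts 1.6.2, Cufflinks, StringTie 1.3.4d, HISAT2 2.1.0, fastp 0.19.3 and the mm10 build were involved. TRIzol extraction and a stranded TruSeq mRNA kit were used, per the labels' protocols. Groups and replicate numbers came from the titles.

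FPKM and the authors' group means gave whole reads and an implied transcript length for 17686 genes. Up to 1000 reads, 100% of the recovered values lay within 0.05 of a whole number. Chi-square per gene between replicates ran from 19.5 to 66.7, above sampling noise in every pair. For genes that reached an FPKM of 1 in 3 or more libraries, limma 3.58.1 under R 4.3.3 was fitted to log2(FPKM + 1), with genotype as its single term and a mean-variance trend, and p-values were adjusted over all 10806 tested genes. This scale understates the change of low genes. Folds are ratios of mean FPKM. The length trend was a natural spline with 4 degrees of freedom of each library's deviation from the gene mean on log2 length. The fit and the removal were also run on simulated reads, with the same dispersion for every gene and a straight-line trend on log2 length. That cannot show whether the removal leaves true effects tied to length intact. Alternatives were 2 normalizations, 2 filters, a pseudocount of 0.1, limma-voom on the recovered reads, the replicate number as a block and each library left out. Coordinates are from the NCBI annotation of GRCm38.p6, where 20334 gene IDs and all 33 of the set matched. Other steps ran under Python 3.11.15 (matplotlib 3.10.9, scipy 1.17.1, pandas 2.3.3, numpy 2.4.6). The genes and lists were chosen with earlier results of these data known. All genes of the set past the threshold are described in full, and up to 4 called genes with the smallest p of each other list. Casp1, Traf2 and Fasl were named after their values were seen.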

Additional observations from a re-analysis of the deposited data

How the results depend on the processing

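All settings were applied to the 32 tested genes and the count over all genes, which was 4772. With the length trend removed that count was 2061, the number of genes lower in KO went from 12 to 4, and of the called genes Mdm2, Bax, Bcl2l11 and Bcl2l2 changed sign, to log2 fold changes of 0.018, -0.11, 0.083 and 0.11, with adjusted p-values of 0.887, 0.202, 0.564 and 0.374. Bak1, Casp6, Aen and Sesn1, which did not pass in either fit, also changed sign. With FPKM of at least 5 as the filter 6 genes of the set were lower, as 23 were then tested. With the replicate number as a block 3 were higher and 10 lower. Same-numbered WT and KO libraries correlated at -0.35 to -0.19 in their deviations from the group means, and differently numbered ones at 0.0025 to 0.20. No library correlated best with its own number. The labels do not say what the numbers stand for, so these values cannot decide whether the samples are paired. Leaving out 1 library gave 4 to 7 higher and 9 to 12 lower genes. After removal of the length trend, leaving out 1 library, an alternative chosen after seeing the data, gave 1 to 3 higher genes, 2 to 5 lower genes and 708 to 1765 over all genes, with 708 without WT replicate 4, 890 without KO replicate 4 and 1184 without KO replicate 2. With both normalizations, no filter, the pseudocount of 0.1 and limma-voom these counts stayed within 1.5 times. Without an expression filter Zmat3, Bax, Bid and Bcl2l2 lost their calls (adjusted p = 0.0618, 0.0598, 0.0961 and 0.0566). With 3 libraries a group, changes of about the size of the SE given cannot be told from 0, and some well beyond it did not pass. Examples as deposited are Trp53 (0.16, SE 0.07), Ccng1 (-0.24, SE 0.09) and Bbc3 (0.30, SE 0.12).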
